A study of Sparus aurata with 6 samples.

Results

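The 100 transcripts described here had a low signal in the intestine of gilthead seabream fed a medicinal plant leaf extract (MPLE). It was lower than on 2 of the 3 arrays of the control diet, by every oligonucleotide probe that the array carries for them. The remaining control array, control pool 2, was dim and was not used for the choice. That array lay above all MPLE arrays in every probe for 26 of the 100 and below all for 11. The transcripts were chosen from the measured values, so their difference between the diets is a description and carries no test. The array held 28793 probes for 15156 target names, and 6780 targets had at least 2 probes. For 4503 of these, every probe was well above background on the 5 arrays used for the choice. Among the 4503, a transcript was lower by every probe when the highest MPLE array lay below the lowest control array for each of its probes, which held for 144 transcripts. The 100 with the largest value of their smallest probe difference (control mean minus MPLE mean) were kept.

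The study compared 2 diets with little fishmeal that differed in MPLE alone, an extract of sage and lemon verbena leaves rich in ursolic acid and verbascoside. The control diet had none and the MPLE diet had 0.1%, and juvenile fish were fed for 92 days in 4 tanks per diet. RNA from the mid-anterior intestine of 4 fish, 1 from each tank of a diet, was mixed into each pool, and 3 pools per diet were hybridised to 1 one-colour array each. Mean body mass at the end was 174 g on the control diet and 190 g on the MPLE diet, over the fish of each diet and not the pooled fish alone. Since each pool drew on all 4 tanks of its diet, the spread between pools leaves out differences between tanks.

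The mid-anterior intestine digests and absorbs food, and its wall also holds mucus-secreting goblet cells, muscle, vessels and the gut-associated lymphoid tissue. An array signal from the whole wall is the sum over these cells. A lower signal can therefore come from fewer cells of a type or from less RNA per cell, and the measurement cannot tell the 2 apart. The targets of this array are expressed sequence tags, that is, cDNA clones read once from 1 end, or contigs assembled from several such reads. The files give them clone and contig names only, and of these 15156 names 0 were found among the RefSeq genes of fSpaAur1.1. The members are therefore given by their rank, with clone names for ranks 1 and 2, and their functions are not described. Several targets may belong to 1 gene. The tissue could not be checked against marker genes for the same reason.

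Control pool 2 was not used to choose the members, because its array was dim. The 75th percentile spot of that array read 153 intensity units, where the remaining 5 arrays gave 1336 to 2371. All 302 member probes were well above background on the 5 arrays used, by construction, and 73.2% of them on control pool 2. Repeated spots of the same member probe differed by a median of 0.72 log2 units on control pool 2 and by 0.06 to 0.08 on the other arrays. The control arrays shared 1 scan day and the MPLE arrays another, and the position on the slide also differed between the diets. Diet, scan day and slide position cannot be told apart in any value below. Each array also lay on a slide of its own, so a pool cannot be told apart from its slide. Values are normalised log2 signals, that is, log2 of the processed signal minus the 75th percentile of the array, averaged over the probes of a transcript unless said otherwise. A value of 0 is the brightness of the 75th percentile spot. Signals of different probes do not rank transcripts by abundance, because probes differ in how well they bind.

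Most members differed by less than 1 log2 unit. The smallest probe difference of a member ranged from 0.25 to 1.97 log2 units with a median of 0.39, while its median over all 4503 transcripts was -0.14. Averaged over the probes, the members were 1.23 to 4.06-fold lower on the MPLE diet than on control pools 1 and 3. The median was 1.38-fold. The mean difference was under 1.5-fold for 74 members, between 1.5 and 2-fold for 21, and over 2-fold for 5. The first 5 ranks had smallest probe differences of 1.97, 1.84, 1.63, 1.62 and 1.24 log2 units, and the sixth had 0.91. Just inside the limit, ranks 99 and 100 had smallest differences of 0.257 and 0.254, and just outside it ranks 101 and 102 had 0.254 and 0.249. The 44 transcripts that were lower by every probe but ranked after 100 thus continue the series without a break. The 144 transcripts make up 3.20% of the 4503, a share that belongs to the choice itself. By the mirror rule, 221 transcripts or 4.91% were higher on the MPLE diet by every probe. This split depended on the scaling, with 174 lower and 103 higher when each array was shifted by its median. Over all 4503 transcripts the median difference was -0.04, slightly higher on the MPLE diet, but its sign also depended on the scaling. It was 0.03 with the shift by the median.

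**Figure D1:**
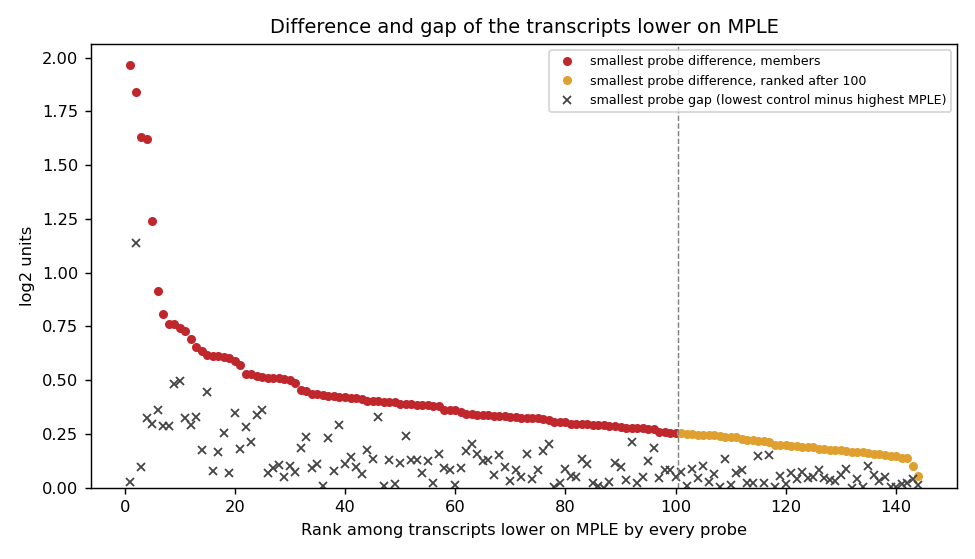
Smallest probe difference between the diets (circles, control mean minus MPLE mean, log2 units) and smallest probe gap (crosses, lowest control minus highest MPLE array) for the 144 transcripts lower on MPLE by every probe, by rank. The first 5 ranks lie above 1.2 log2 units, and the dashed line after rank 100 marks the limit of the members. By definition no gap exceeds its difference, and over the members their medians are 0.11 and 0.39 log2 units.

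A large mean difference alone did not make a transcript a member. Of the 4503 transcripts, 21 had a mean difference over 1 log2 unit toward a lower signal on MPLE, and 5 of these were members. At over 1.5 log2 units the counts were 14 and 4. The others overlapped between the diets in at least 1 probe. Of the 4405 transcripts with 3 probes, 136 were lower in all 3, 245 in 2 and 462 in 1. One of the 245 had a mean difference of 2.10 log2 units, larger than that of any member. Of single probes above background, 11.3% were lower and 12.8% higher on the MPLE diet without overlap over the 5 arrays.

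**Figure D2:**
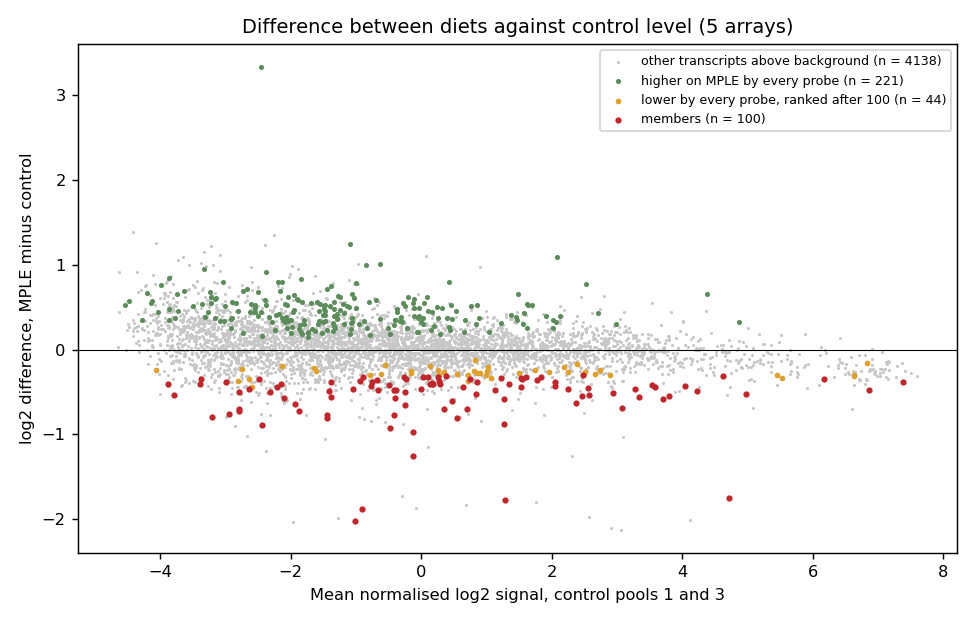
log2 difference between the diets (MPLE minus control, mean over probes) against the mean normalised log2 signal of control pools 1 and 3, for 4503 transcripts, with the members in red, the 44 other transcripts lower by every probe in orange and the 221 higher by every probe in green. The members reach from -2.02 to -0.30 and lie among grey points of like size that overlapped between the diets in at least 1 probe.

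The member ranked first, the single read cDN01P0005J21.F.ab1, had 3 probes and the largest difference but almost no gap. Its normalised log2 signal was -0.24 and -1.80 on control pools 1 and 3 and -1.93, -4.68 and -2.50 on MPLE pools 1 to 3. Control pool 1 stood far above the other arrays and MPLE pool 2 far below them, while control pool 3 and MPLE pool 1 were nearly equal. In its closest probe the lowest control array exceeded the highest MPLE array by 0.03 log2 units. The mean difference of 2.02 was smaller than the range of 2.75 within the MPLE diet. Leaving out MPLE pool 2 brought it to 1.20, leaving out control pool 1 to 1.24, and leaving out control pool 3 to 2.80. On the dim control pool 2 the transcript was at -4.16, near the lowest MPLE array, but none of its probes was well above background there. With control pool 2 added to the controls the mean difference was 0.97.

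The second member, the single read cDN11P0002I16.F.ab1, showed the widest gap of all members. Its 3 probes averaged -1.31 and -0.50 on control pools 1 and 3 and -2.98, -2.89 and -2.47 on MPLE pools 1 to 3. In every probe each control array exceeded each MPLE array by at least 1.14 log2 units. The mean was -2.78 ± 0.27 (SD, n = 3) on the MPLE diet, and the signal was 3.67-fold lower there than on control pools 1 and 3. On control pool 2, where all its probes were well above background, it was at -0.48, level with control pool 3. With that array added, the control mean was -0.76 ± 0.47 (SD, n = 3) and the difference 2.02. The smallest of the 3 probe differences was 1.84 and the largest 1.90. With normexp background correction the mean difference from control pools 1 and 3 was 1.15 instead of 1.88.

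Ranks 3 and 4 depended on single pools. Rank 3 was at 4.60 and 4.83 on control pools 1 and 3 and at 3.27, 1.46 and 4.16 on MPLE pools 1 to 3. MPLE pool 2 was thus lowest by far and MPLE pool 3 came close to the controls, which differed from each other by 0.22 only. Control pool 2 was at 4.63, between the other control arrays. Rank 4 was at 1.86 and 0.72 on control pools 1 and 3 and at 0.13, -1.91 and 0.33 on the MPLE pools. Like rank 1, it was highest on control pool 1, lowest of the 5 arrays on MPLE pool 2, and not well above background on control pool 2. Its value on control pool 2 was -2.93, below all MPLE arrays in every probe. On average, rank 3 was 3.37-fold and rank 4 was 3.41-fold lower on the MPLE diet than on control pools 1 and 3. Their ranges within the MPLE diet were 2.70 and 2.23 log2 units. Without MPLE pool 2 the mean difference was 1.00 instead of 1.75 log2 units for rank 3 and 1.06 instead of 1.77 for rank 4.

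Rank 5 had close controls at -0.05 and -0.20, MPLE pools 1 to 3 at -1.89, -1.63 and -0.65, and control pool 2 at 0.24. All 3 control arrays lay above all 3 MPLE arrays in every probe of this transcript, with a mean difference of 1.26 log2 units from control pools 1 and 3. Rank 6 was at -0.36 and 0.13 on control pools 1 and 3 against -1.02, -1.33 and -0.92 on the MPLE pools. Its value on control pool 2 fell between MPLE pools 1 and 3. Rank 7 behaved alike, with -0.64 and -0.30 on control pools 1 and 3, -1.59, -1.55 and -1.05 on the MPLE pools and -1.30 on control pool 2. These 2 transcripts were 1.96-fold and 1.90-fold lower on the MPLE diet than on control pools 1 and 3. All their probes were well above background on control pool 2, where both lay within the range of the MPLE pools.

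**Figure D3:**
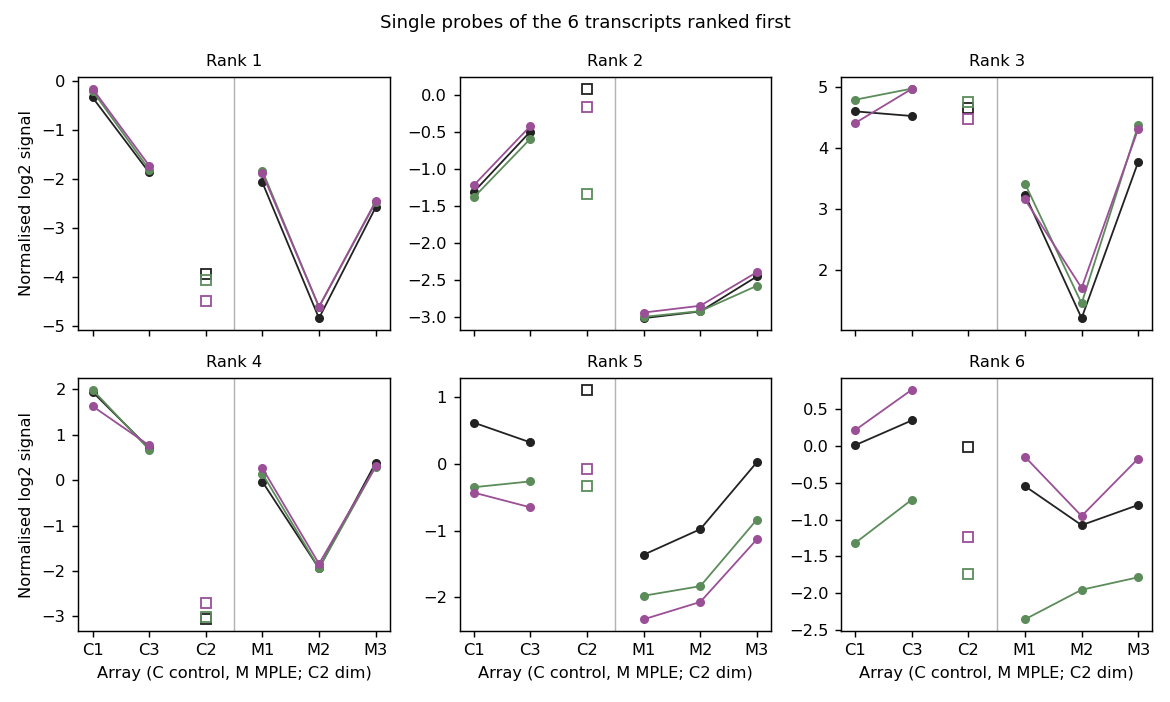
Normalised log2 signal of each probe (1 colour per probe, 3 probes per transcript) of ranks 1 to 6 on the arrays of control pools 1, 3 and 2 (C1, C3, C2) and MPLE pools 1 to 3 (M1 to M3), with control pool 2 as open squares. Probes of a transcript follow the same course over the arrays, and the course differs between transcripts: ranks 1, 3 and 4 are lowest of the 5 arrays on MPLE pool 2, whereas rank 2 is low on all 3 MPLE pools.

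Among ranks 8 to 20, several were low on all 3 MPLE pools alike. Rank 9 was at 0.53 and 0.56 on control pools 1 and 3 and at -0.13, -0.30 and -0.36 on the MPLE pools. Control pool 2 was at 0.00 for this transcript, 0.55 below the control mean, with all probes well above background. Rank 10 was at -1.52 and -1.36 against -2.20, -2.34 and -2.11, and control pool 2 was at -1.45, between its other controls, although not all its probes were well above background there. In ranks 9 and 10, the gap between control pools 1 and 3 and the MPLE pools was wider than the spread within either diet. Rank 15 was at 0.52 and 0.20 against -0.29, -0.40 and -0.35, with control pool 2 at 0.06. Rank 20 was at -2.66 and -2.91 against -3.46, -3.54 and -3.46, with control pool 2 at -2.36 but not well above background in every probe. For ranks 15 and 20 all control arrays exceeded all MPLE arrays in every probe. By contrast, rank 17 had its controls at 1.23 and 1.32 but MPLE pool 2 at 0.93, well above MPLE pools 1 and 3 at 0.06 and 0.21. Rank 8 was lowest on MPLE pool 3, with -3.33 and -3.09 on the controls against -3.74, -3.79 and -4.49.

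**Figure D4:**
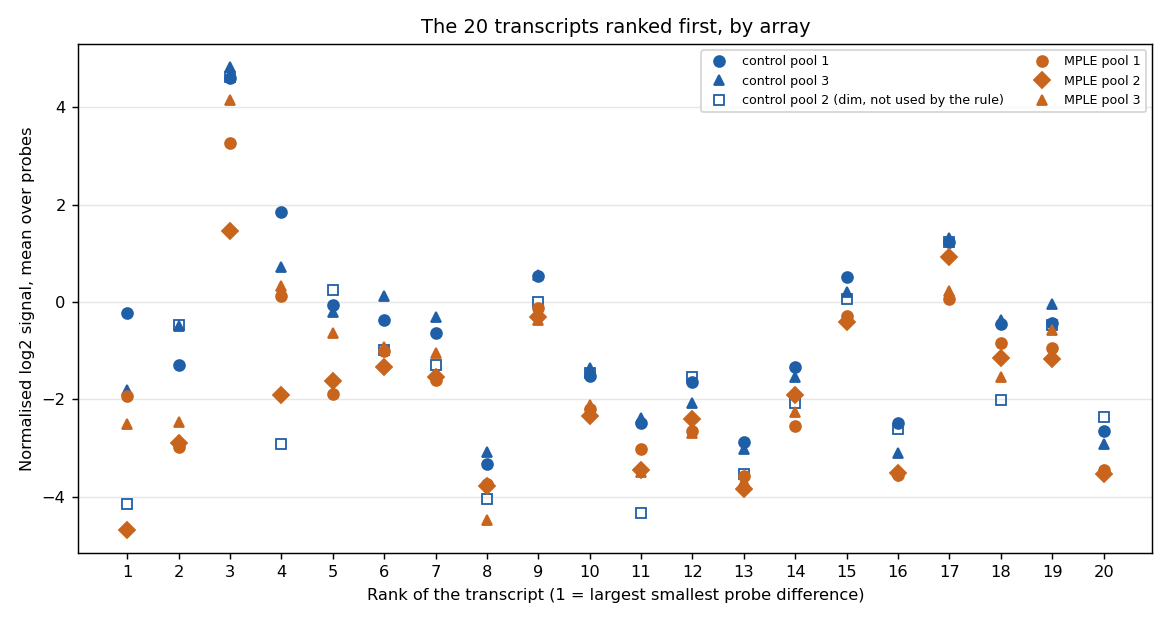
Normalised log2 signal (mean over probes) of the 20 members ranked first on each array, control in blue and MPLE in orange, with the dim control pool 2 as open squares. Blue filled symbols lie above the orange ones for each transcript by the choice of members, while the open square lies near or above the controls for some (ranks 2, 3, 5, 10, 17) and among or below the MPLE arrays for others (ranks 1, 4, 11, 18).

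In 34 of the 100 members, control pools 1 and 3 lay above the MPLE pools by more than the range within either diet. The same held for 13 of the other 44 transcripts lower by every probe. Both groups were chosen to have a gap in every probe, so these counts belong partly to the choice. Control pool 2 is left out of these gaps and ranges. It lay above all MPLE arrays in every probe for 11 of the 34 members and below all for 5. In 57 members the widest spread lay within the MPLE diet instead, and in 9 within the control diet. A range over 3 MPLE arrays tends to be wider than one over 2 control arrays, so these counts do not compare the diets. The mean difference was smaller than the range within a diet in 23 members. The gap in the closest probe had a median of 0.11 log2 units and was under 0.1 in 45 members, which is near the 0.06 to 0.08 found between repeated spots. Rank 87 had the smallest gap, 0.0004 log2 units. The quietest member was rank 73, with -1.38 and -1.37 on control pools 1 and 3 and -1.76, -1.78 and -1.74 on the MPLE pools. Its difference was 0.38 and its range within the MPLE diet 0.04, while control pool 2 averaged -1.95 but did not lie below the MPLE arrays in every probe and was not well above background in all of them. Rank 92 was similarly even, with 0.72 and 0.79 on the controls and 0.38, 0.40 and 0.45 on the MPLE pools, and here control pool 2 was at 0.76, between the other controls.

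The 3 MPLE pools did not share the low values evenly. MPLE pool 2 was the lowest of the MPLE arrays in 50 members, MPLE pool 3 in 28 and MPLE pool 1 in 22. Over all 4503 transcripts these shares were 39.0%, 29.1% and 31.9%. Of the other 44 transcripts lower by every probe, MPLE pool 2 was lowest in 34, MPLE pool 3 in 6 and MPLE pool 1 in 4. The lean toward MPLE pool 2 was thus not particular to the members. For 35 members MPLE pool 2 was lowest in every probe, against 21 for MPLE pool 3 and 7 for MPLE pool 1. The array nearest to the controls was MPLE pool 1 in 38 members, MPLE pool 3 in 38 and MPLE pool 2 in 24. Over all 4503 transcripts these arrays were the highest of the MPLE diet in 29.7%, 28.6% and 41.7%, so that MPLE pool 2 was most often both the lowest and the highest. MPLE pool 2 was also the array with the highest 75th percentile of signal and correlated least with the other arrays apart from control pool 2 (Pearson's r across the probes of the 4503 transcripts of 0.969 to 0.973, against 0.982 to 0.989 among the other 4). Probes are not independent replicates, and the part of this array in the members was not tested. Leaving out 1 array could not reverse a member's difference, since the choice put control pools 1 and 3 above every MPLE array. It moved the mean difference of 23 members by over 1.5 times. MPLE pool 2 did so for 12 of them, control pool 1 for 5, MPLE pool 3 for 4, control pool 3 for 3 and MPLE pool 1 for 0, with rank 1 counted under both MPLE pool 2 and control pool 1. Rank 60 moved most, from 0.38 to 0.12 log2 units without MPLE pool 2, where that array was at 6.47 while MPLE pools 1 and 3 were at 7.31 and 7.21 and control pools 1 and 3 at 7.36 and 7.40. Of the control arrays, pool 1 was the lower in 54 members and pool 3 in 46.

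The probes of a member agreed closely with each other in their difference between the diets. Of the members, 92 had 3 probes, 5 had 4 and 3 had 2. The range of the probe differences within a member had a median of 0.13 log2 units, against 0.18 over all 4503 transcripts, and agreement in sign was part of the choice. In 91 members this range was under 0.5 times the mean difference, which the ranking by the smallest probe difference also favoured. Rank 66, a transcript with 2 probes, was the least even, with differences of 0.34 and 1.07 log2 units. Probes of 1 transcript were read from the same RNA on the same array, so they check the probe and not the pool. No spot was saturated on any array. The spots of the members were spread over the array, with 22.5% to 26.5% in each of 4 equal areas, against 24.6% to 25.4% for all 4503 transcripts.

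Single reads made up 43 of the 100 members and contigs 57. This was close to the 41.9% and 58.1% over all 4503 transcripts. Single reads were more frequent at the top, with 15 of the first 20 ranks, including all of the first 5, and 9 of the last 20. The largest mean difference was 2.02 among single reads and 0.97 among contigs. The median of the smallest probe difference was 0.43 for single reads and 0.38 for contigs. Single reads among the members also had a lower median control signal, -0.47 against 0.84 for contigs. Their median range within the MPLE diet was 0.37 against 0.29 log2 units. How these values relate to the size of the difference was not tested. Members whose control signal exceeded the 75th percentile of the array numbered 55, or 55% against 39.8% over all 4503 transcripts. The choice favoured high values on these same control arrays, so the shares are not on equal terms. The median smallest difference was 0.35 in the 55 brighter members and 0.40 in the 45 dimmer members.

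Control pool 2 gave the one measurement that the choice had not used on the control side. It lay above all 3 MPLE arrays in every probe for 26 of the 100 members, below all 3 in every probe for 11, and in between or mixed for 63. Over all 4503 transcripts it lay above in 6.66% and below in 17.5%. Of the other 44 transcripts lower by every probe, it lay above for 8, or 18.2%. The MPLE arrays of this comparison are those that the rule required to be low, so these shares are not on equal terms with the background, and no test is given. Of the transcripts higher on MPLE by every probe, where the rule required the MPLE arrays to be high, control pool 2 lay below all 3 in 45.2%. With all 3 control arrays in the rule, 34 transcripts or 0.755% of the 4503 were lower by every probe, 26 of them members. The mirror count was 100, or 2.22%.

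On a scale where 0 is the MPLE mean and 1 the mean of control pools 1 and 3, control pool 2 had a median position of 0.33 over the 100 members. The members were split by their signal on control pools 1 and 3, since a split by the signal on control pool 2 would use the value being placed. The median position was 0.76 over the 55 members whose control signal exceeded the 75th percentile of the array and 0.09 over the other 45. All probes were well above background on control pool 2 in 51 of the 55 but in only 14 of the 45. Control pool 2 lay above all MPLE arrays in every probe for 20 of the 55 and for 6 of the 45, and below all for 5 and 6. For the transcripts higher on MPLE by every probe, the median position was 0.92 in the brighter and 1.28 in the dimmer transcripts. In these the controls lie below the MPLE mean, so a position over 1 is a signal lower than the mean of control pools 1 and 3. The 0.09 of the dimmer members also stands for a signal lower than that mean. These medians are descriptions, and the difference between brighter and dimmer transcripts was not tested. The count of 26 was 45 when each array was shifted by its median instead of its 75th percentile, and the median position was then 1.09. With the authors' deposited log2 table, shifted to the 75th percentile, the count was 9 and the median position -0.34. The place of this array thus rests on how its signal is processed and scaled.

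**Figure D5:**
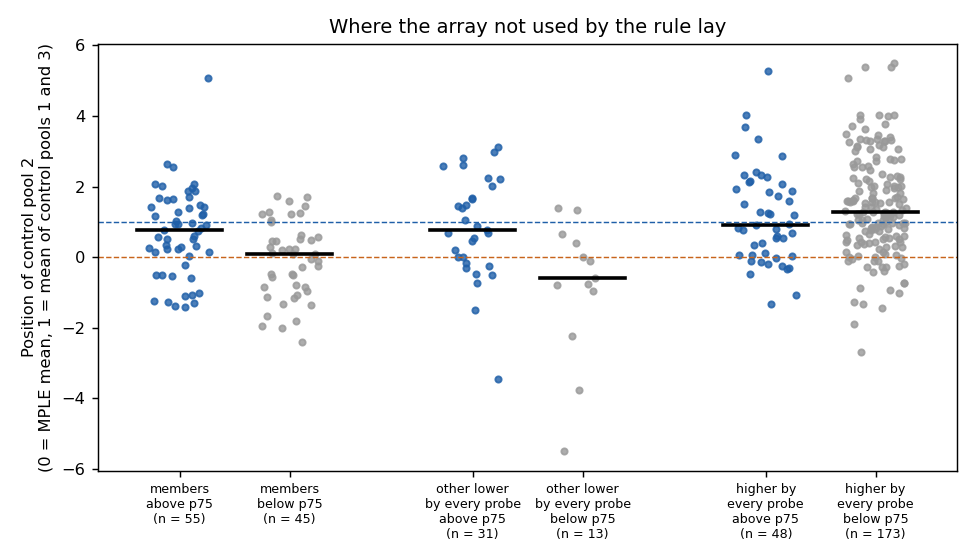
Position of control pool 2 between the MPLE mean (0) and the mean of control pools 1 and 3 (1) for the members, the 44 other transcripts lower by every probe and the 221 transcripts higher by every probe, split by whether the mean signal on control pools 1 and 3 was above the 75th percentile of the array (p75). Points are transcripts and black bars medians, which are 0.76 for the brighter and 0.09 for the dimmer members, with wide overlap. Only 14 of the dimmer members had all probes well above background on control pool 2.

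The 26 members in which control pool 2 also exceeded every MPLE array had mean differences of 0.31 to 1.88 log2 units from control pools 1 and 3, with a median of 0.52. They included 7 of the first 20 ranks (ranks 2, 3, 5, 12, 15, 16 and 20) and 6 of the last 20. All probes were well above background on control pool 2 in 23 of them. In 11 the gap between control pools 1 and 3 and the MPLE arrays was wider than the range within either diet. One of them, rank 25, was at 3.63 on control pool 2 but at 1.26 and 1.29 on control pools 1 and 3 and at 0.75, 0.82 and 0.53 on the MPLE pools. Its control arrays thus differed among themselves by more than the diets did. In the more even rank 62 the mean was 3.64 ± 0.12 on the control diet and 3.14 ± 0.07 on the MPLE diet (SD, n = 3 each), and in rank 99 it was 0.31 ± 0.08 and -0.06 ± 0.08 (SD, n = 3 each). Both had differences of 0.51 and 0.37 log2 units that exceeded the spread of either diet. The 11 members with control pool 2 below every MPLE array in every probe had mean differences of 0.35 to 1.77 log2 units. Their median was 0.54, and in 4 of them all probes were well above background on control pool 2. One of these 4, rank 24, was at 2.55 on control pool 2. It was at 3.93 and 3.68 on control pools 1 and 3 and at 3.34, 3.22 and 3.22 on the MPLE pools.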

How the data were processed

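The authors deposited the scanner output of 6 one-colour arrays, which hold linear intensity values. Per the file headers, Feature Extraction 10.7.3.1 had subtracted the background within each array, with no normalization between arrays. The authors also deposited a log2 table, which equalled log2 of the background-subtracted signal of each spot to within 1e-08. The 1417 control spots of each array were dropped, log2 of the processed signal was set relative to the array's own 75th percentile, following the study's methods, and spots were averaged per probe. A probe was well above background where more than 0.5 of its spots were. No test was run on the members, since the choice used the same arrays. The members and all lists were chosen with earlier results of these data known. Named were the clone names of the first 2 ranks, since the files give no gene names. The alternatives were other shifts between arrays, the deposited table, normexp on the median signals (limma 3.58.1, R 4.3.3, offset 50), other filters and flags, and leaving out arrays. The rule was tested on simulated data with noise independent between probes and drops larger than most members showed. This checks the computation of the rule and not the members. Values were computed with Python 3.11.15. The number of arrays limits the precision.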

Additional observations from a re-analysis of the deposited data

How the results depend on the processing

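Under the 15 alternatives, the 144 transcripts lower by every probe became 51 with the deposited log2 table left unshifted, 90 with normexp and 34 with control pool 2 among the controls, and the 100 members that met the rule became 24, 38 and 26. With 1 array fewer, which makes the rule easier to meet, 226 (without MPLE pool 3) to 425 (without control pool 3) transcripts met it. All 100 members then met it by construction, but of the 100 ranked first 27 (without control pool 3), 28 (without MPLE pool 2), 40 (without control pool 1), 55 (without MPLE pool 1) and 68 (without MPLE pool 3) were members. The other shifts and filters gave 130 to 177 transcripts and 71 to 100 members. Against 144 lower and 221 higher, the split was 174 and 103 with the median shift, 177 and 105 with the shifted deposited table, 51 and 43 with that table unshifted and 90 and 298 with normexp. The median smallest difference of the members, 0.39, ranged from 0.24 with control pool 2 among the controls to 0.46 with the median shift. The 26 members with control pool 2 above every MPLE array became 45 with the median shift, 9 with the shifted deposited table, 0 with that table unshifted and 14 with normexp (with 1 array fewer, 26 to 30, a count that could not decrease). The median position of control pool 2, 0.33, was 1.09 with the median shift, -0.34 with the shifted deposited table and -7.82 with that table unshifted, which carries the dimness of the array. Where no cause is named, the cause was not tested. Normexp moved the median difference of all 4503 transcripts from -0.04 to -0.18, the median shift to 0.03 and the shifted deposited table to 0.005. Normexp lowered the difference of rank 1 from 2.02 to 1.25 and of rank 2 from 1.88 to 1.15. Neither difference changed sign under any alternative, but the choice fixed this in advance where an array was left out or the background filter changed. No paired analysis was possible because no result comes from a test and the pools share only a number. Fewer probes could be read on control pool 2 than on the other arrays.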
